A study of Mus musculus with 13 samples.

Results

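Carboxylesterases are serine hydrolases of the endoplasmic reticulum lumen, and some are secreted into plasma. They split esters and amides of drugs and other foreign compounds, and several of them also hydrolyse acylglycerols and other lipid esters. In the mouse the genes lie in tandem arrays on chromosome 8, and small intestine and liver are the tissues best known for them. The 10 genes described here are Ces1c, Ces1d, Ces1e, Ces1f, Ces1g, Ces2a, Ces2b, Ces2c, Ces2e and Ces3a. A gene counted as measured where the deposited array table held a probe set annotated with its symbol alone, and among several the probe set would have been chosen by its mean log2 level over all arrays. This gave 9 genes with 1 probe set each, out of 19938 genes measured in this way; tests ran over 23410 probe sets with at least 1 gene symbol. For Ces2c no probe set carried that symbol alone, so it was not measured here. The family was proposed with the difference of Ces1e in adenomas already known, so that difference is given below as a description.

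Each sample was hybridised to its own Mouse Gene 1.0 ST array (Affymetrix), and the small intestinal samples formed 3 groups. These were adenomas (n = 3), adjacent normal epithelium with high FP expression (FP-high, n = 4) and adjacent normal epithelium with low FP expression (FP-low, n = 6). All 3 groups came from Apc mutant mice crossed with transgenic mice that express FPs, so the normal samples carry the mutation as well. Apc restrains Wnt signalling, and its loss starts adenomas. What FP stands for is not stated in the sources, which also give no age, no name of the Apc allele, no promoter of the transgene and no record of which arrays share an animal. Material was picked crypt by crypt with capillaries of 40 µm, and so little RNA had to be amplified. No source ties the arrays of a group to separate animals, so the p-values reflect spread among arrays that may be technical, and precision is limited by how few arrays there are. In such samples, fewer cells of a type and less RNA per cell cannot be told apart.

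Among the 13 arrays, FP-high replicate 1 was unlike the rest. The SD of its log2 values over the tested probe sets was 1.21, whereas the others lay between 1.89 and 2.10, and it correlated with them at a median of 0.762, against 0.943 to 0.968. Epcam, which marks epithelial cells, had a log2 level of 7.58 there, against 8.85 to 9.58 in the rest. The differences that rest on this array are therefore also given without it. The labelled tissue could be recognised in the others: the mean log2 level of 10 general epithelial markers was 8.74 to 9.53 in adenomas, 9.12 to 9.64 in FP-high replicates 2 to 4 and 8.95 to 9.60 in FP-low arrays, but 6.86 in FP-high replicate 1. A mean log2 level of 4.21 to 4.71 was found for 9 hepatocyte and acinar markers in adenomas, 4.15 to 4.67 in FP-high and 4.19 to 4.68 in FP-low arrays. Liver expresses the family strongly, and these levels lie near the array medians of 4.55 to 4.65. Single markers differed in direction: in adenomas relative to normal 2 of the 9 were higher and 7 lower, with Alb at 1.48 and Apoh at -0.60. The part of RNA from such cells in the levels was not tested.

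Upstream regions of 3 genes are shown because Ces2a and Ces2e varied together over the arrays while Ces1e followed these 2 less closely. The RefSeq table (GRCm38.p6) held 6 of the 10 members (Ces1c, Ces1e, Ces1g, Ces2a, Ces2c and Ces2e), and the 250 bases before the start site are printed 5′ to 3′ on the gene's own strand. Ces1e is on the minus strand at chr8:93229620-93229869, and Ces2a and Ces2e are on the plus strand at chr8:104733753-104734002 and chr8:104926010-104926259. In the Ces2a and Ces2e lines, capitals mark stretches of at least 10 bases that occur in both. In the Ces1e line, capitals mark matches to the motifs named next.
Ces1e: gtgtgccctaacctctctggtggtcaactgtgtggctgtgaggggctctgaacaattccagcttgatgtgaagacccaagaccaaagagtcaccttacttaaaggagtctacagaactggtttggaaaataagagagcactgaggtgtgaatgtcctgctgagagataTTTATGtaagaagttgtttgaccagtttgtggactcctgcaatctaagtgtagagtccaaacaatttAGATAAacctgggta
Ces2a: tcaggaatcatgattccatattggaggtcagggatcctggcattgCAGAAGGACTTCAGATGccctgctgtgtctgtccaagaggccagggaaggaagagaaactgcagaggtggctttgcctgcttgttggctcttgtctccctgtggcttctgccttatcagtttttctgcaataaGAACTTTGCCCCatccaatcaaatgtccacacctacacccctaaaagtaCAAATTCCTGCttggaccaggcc
Ces2e: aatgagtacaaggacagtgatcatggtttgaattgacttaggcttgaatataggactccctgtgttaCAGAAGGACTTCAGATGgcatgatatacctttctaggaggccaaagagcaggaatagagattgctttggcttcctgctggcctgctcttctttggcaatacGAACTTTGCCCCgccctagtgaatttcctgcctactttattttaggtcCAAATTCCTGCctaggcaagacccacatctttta

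Ces2a and Ces2e shared 3 such stretches, with 40 bases in all, in the same order. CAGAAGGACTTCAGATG began 205 bases before the start of Ces2a and 183 before that of Ces2e, and 2 of the 32851 promoters in the table held it. GAACTTTGCCCC began 72 and 82 bases before these starts and was found in 3 promoters. CAAATTCCTGC began 23 and 34 bases before them and was found in 8 promoters, Ces2g among them. None of the 3 occurred in the region of Ces2c, a gene that lies between them. The search was chosen after the levels had been seen, and shared letters are a description of neighbouring gene copies. Whether any of the stretches is a binding site was not tested.

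Simple motifs of intestinal factors were searched for on both strands of these regions, a search also chosen after the levels had been seen, and no match overlapped a match of another motif. For GATA factors, AGATAA was found 15 bases before the start of Ces1e, and its variant TGATAA 93 before that of Ces2a on the opposite strand. Either form occurred in 16.6% of all promoters in the table. For CDX2, TTTATG was found 82 bases before the start of Ces1e and its variant TTTATT 47 before that of Ces2e, with either form in 25.5% of promoters. CCAAT was found 58 and 231 bases before the start of Ces2a, the second on the opposite strand, and in 33.8% of promoters. TATAAA (12.4% of promoters), GTTAAT of HNF1 (6.43%), CACGTG (6.02%) and the HNF4 motif forms CAAAGTCCA and CAAAGGTCA (0.807%) were not among the letters of these 3 windows. Only exact letters were searched for, so sequences close to a motif were not counted.

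Ces1e encodes egasyn, the esterase that holds beta-glucuronidase in the endoplasmic reticulum. Its probe set, 10580649, had log2 levels of 4.76, 4.57 and 4.41 in the adenomas. The FP-high arrays had 5.15, 5.96, 5.43 and 5.65, and the FP-low arrays had 6.20, 6.75, 5.64, 6.55, 5.63 and 6.51. Every adenoma therefore lay below every normal array, with FP-high replicate 1 the nearest of these. The group means were 4.58 ± 0.18 in adenomas (SD, n = 3), 5.55 ± 0.34 in FP-high (SD, n = 4) and 6.21 ± 0.48 in FP-low epithelium (SD, n = 6), so that FP-low was highest and adenoma lowest, and the normal groups overlapped each other.

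On the log2 scale Ces1e was -1.30 ± 0.25 (SE) in adenomas relative to the average of the normal group means, with an interval at 95% of -1.84 to -0.76, a level 2.46-fold lower. Relative to FP-low alone the difference was -1.63 ± 0.27, 3.10-fold lower, and relative to FP-high alone it was -0.97 ± 0.29. These comparisons share the adenoma arrays. Without FP-high replicate 1 the difference from normal was -1.37 and that from FP-high -1.10. No p is attached, because the family was proposed with this difference known.

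Other measures also separated the adenomas from most normal arrays. Fabp6, the bile acid binding protein of the ileum, rose in adenomas by 6.39 ± 0.85 on the log2 scale relative to normal (limma, adjusted p = 0.00268). Slc10a2, the bile acid carrier of the ileum, rose by 3.19 ± 0.17 (limma, adjusted p = 2.94e-07). With the replicate number as a block these adjusted p were 0.0677 for Fabp6 and 0.00158 for Slc10a2, and both calls held without any 1 of the 13 arrays. The 12 markers of distal small intestine had a mean log2 level of 6.54 to 7.28 in adenomas, 4.64 to 6.54 in FP-high and 5.25 to 5.92 in FP-low arrays, and 11 of the 12 were higher in adenomas than in normal epithelium, with a median of 0.73 (9 of 12 and 0.35 without FP-high replicate 1). Of 12 markers of proximal small intestine 9 were lower in adenomas than in normal epithelium (median -0.24), or 11 without FP-high replicate 1 (median -0.41). Relative to FP-high all 12 were lower, but relative to FP-low 5 were lower and 7 higher. Without FP-high replicate 1, Adh6a and Ccl25 of this list were called as lower relative to normal. The part that position along the intestine has in the Ces1e difference was not tested. Ces1e and the mean of the distal list had a Pearson correlation of -0.49 over 13 arrays, -0.71 over the 12 without FP-high replicate 1 and -0.13 over the 9 normal arrays among these.

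Xist, an RNA of female cells, had log2 levels of 8.88 to 9.71 in the adenomas, 2.34 to 3.61 in most normal arrays, and 8.64 and 8.74 in FP-high replicate 4 and in FP-low replicate 6. In the 2 normal arrays high in Xist, Ces1e had levels of 5.65 and 6.51, above all 3 adenomas. Since all 3 adenomas but only 2 normal arrays were high in Xist, sex went along with the groups. Its part in the Ces1e difference was not tested. Markers of other cell types of the intestine moved with the groups too. The mean log2 level of 7 Paneth cell markers was 8.09 to 9.27 in adenomas, 6.51 to 10.2 in FP-high and 9.10 to 10.5 in FP-low arrays, and 5 of the 7 were lower in adenomas than in normal epithelium (median -0.93). That of 10 enteroendocrine markers was 4.78 to 4.89 in adenomas, 4.87 to 5.43 in FP-high and 5.08 to 5.69 in FP-low arrays, with 9 of 10 lower in adenomas (median -0.32). All 11 T cell markers were lower in adenomas (median -0.39), with mean levels of 4.11 to 4.63 in adenomas, 4.58 to 5.53 in FP-high and 4.02 to 4.97 in FP-low arrays. All 8 goblet cell markers were higher in adenomas (median 0.48), but 5 of 8 without FP-high replicate 1 (median 0.07), which held 5.84 where the other arrays had mean levels of 8.12 to 9.67. In these 4 lists 0 genes were called by limma. Without FP-high replicate 1, the Paneth genes Lyz1 and Defa24 were called as lower. So were Olfm4 of the stem cell list and Lyz2 of the macrophage and neutrophil list. In that setting Cdh5 and Emcn were called as higher among 9 endothelial markers, of which 4 were higher and 5 lower. Krt18 was called as higher among 10 general epithelial markers, of which 3 were higher and 7 lower. Of 12 stem cell markers 9 were higher in adenomas than in normal epithelium (median 0.12), or 7 without FP-high replicate 1 (median 0.08). Relative to FP-low 6 were higher and 6 lower. With all arrays Lgr5, a receptor of crypt stem cells, was the 1 called relative to normal. It rose by 1.62 ± 0.33 relative to normal (limma, adjusted p = 0.0417, or 0.118 with the replicate block). Its call held only when FP-high replicate 1 or FP-low replicate 5 or 6 was the array left out.

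The mean log2 level of 14 macrophage and neutrophil markers was 4.01 to 4.54 in adenomas, 4.18 to 4.48 in FP-high and 3.99 to 4.36 in FP-low arrays. In adenomas relative to normal 8 of the 14 were higher. With all arrays Ptprc, a leukocyte phosphatase, was the 1 called, as higher (0.79 ± 0.16 relative to normal, limma, adjusted p = 0.0393). The mean of 12 fibroblast and smooth muscle markers was 4.33 to 4.89 in adenomas, 4.34 to 4.63 in FP-high and 4.23 to 4.59 in FP-low arrays. Of these 12, 6 were higher in adenomas relative to normal and 6 lower. Dcn, a matrix proteoglycan, was the 1 called, as higher (2.36 ± 0.45, limma, adjusted p = 0.0277). With the replicate block both calls ended (adjusted p = 0.204 for Ptprc and 0.168 for Dcn). Dcn also lost its call without adenoma replicate 1 or 2, or without replicate 2 or 4 of FP-low (adjusted p up to 0.156), and Ptprc without any adenoma, without FP-low replicate 1, 2, 3 or 5, or without replicate 2 or 4 of FP-high (up to 0.301). Their part in the Ces1e difference was not tested.

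**Figure D1:**
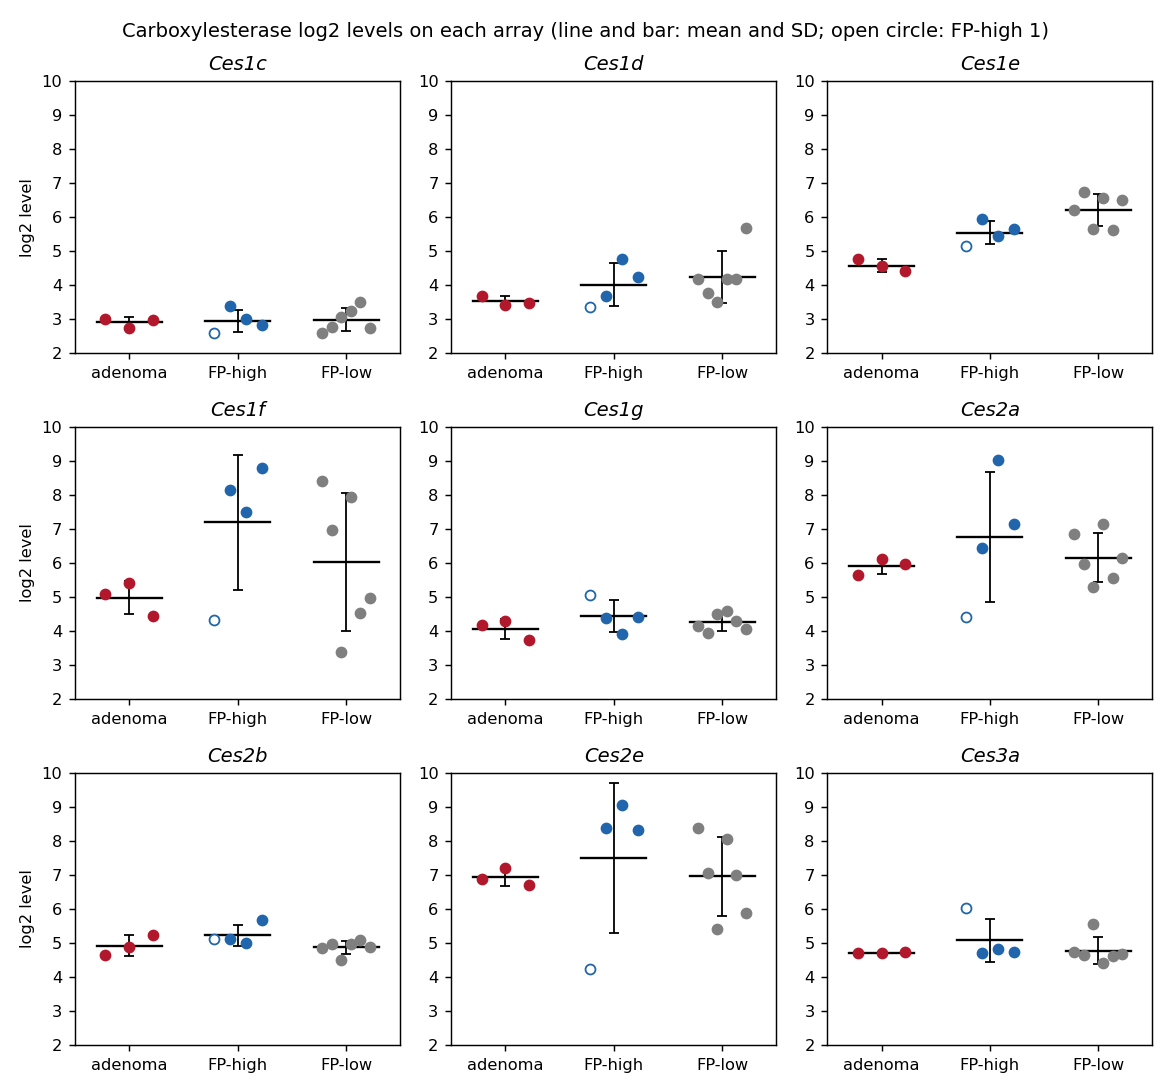
Log2 level of each measured carboxylesterase on every array, with adenomas on the left, FP-high in the middle and FP-low on the right of each panel; the line is the group mean, the bar the SD, and the open circle FP-high replicate 1. Ces1e shows adenomas (4.41 to 4.76) below all normal arrays, while Ces1f, Ces2a and Ces2e spread widely within the normal groups and narrowly among adenomas.

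Ces1f encodes triacylglycerol hydrolase 2 and was the most variable member, on probe set 10580663. Its log2 levels were 5.09, 5.41 and 4.45 in adenomas, 4.32, 8.15, 7.50 and 8.79 in FP-high arrays and 8.41, 6.98, 3.39, 7.93, 4.53 and 4.97 in FP-low arrays. FP-high replicates 2 to 4 were all above the adenomas, whereas FP-low arrays fell on both sides of them. The means were 4.98 ± 0.49 in adenomas, 7.19 ± 1.99 in FP-high and 6.04 ± 2.03 in FP-low epithelium (SD, n = 3, 4 and 6), and in order of level FP-high exceeded FP-low, and FP-low the adenomas, by less than the SD of either normal group. The level covered 5.40 log2 units over the normal arrays and 0.97 among the adenomas. In adenomas relative to normal the difference was -1.63 ± 1.07 (limma, adjusted p = 0.585), with an interval of -3.94 to 0.68, or -2.11 once FP-high replicate 1 was left out (adjusted p = 0.274).

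Ces2e, a hydrolase of pyrethroid and other esters, had log2 levels of 6.86, 7.20 and 6.70 in adenomas on probe set 10574545. FP-high arrays had 4.23, 8.37, 9.06 and 8.31, and FP-low arrays had 8.37, 7.04, 5.39, 8.05, 6.99 and 5.88. FP-high replicates 2 to 4 were again above all adenomas, while FP-low arrays lay above and below them. The means of 6.92 ± 0.25, 7.49 ± 2.20 and 6.96 ± 1.17 (adenomas, FP-high and FP-low) were apart by less than the SD of FP-high or of FP-low. The difference between adenomas and normal was -0.30 ± 0.86 (limma, adjusted p = 0.879), with an interval of -2.17 to 1.57. It came to -0.85 once FP-high replicate 1 was left out (adjusted p = 0.446).

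Ces2a belongs to the subfamily that hydrolyses acylglycerols and drug esters in liver and intestine, and its probe set was 10574498. It had log2 levels of 5.64, 6.11 and 5.96 in adenomas, 4.40, 6.44, 9.02 and 7.14 in FP-high arrays and 6.86, 5.96, 5.30, 7.15, 5.55 and 6.15 in FP-low arrays. FP-high replicate 3 was the highest array for Ces2a and for Ces2e, and FP-high replicate 1 was the lowest for both. The Ces2a means were 5.90 ± 0.24 in adenomas, 6.75 ± 1.91 in FP-high and 6.16 ± 0.72 in FP-low epithelium. Adenomas differed from normal by -0.55 ± 0.69 (limma, adjusted p = 0.732), with an interval of -2.05 to 0.95, and by -0.94 without FP-high replicate 1 (adjusted p = 0.366).

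The other 5 measured members varied less over the arrays than Ces1f, Ces2a and Ces2e. Ces1d, the triacylglycerol hydrolase that takes part in the mobilisation of stored fat for lipoproteins, had levels of 3.42 to 3.70 in adenomas, 3.36 to 4.78 in FP-high and 3.50 to 5.67 in FP-low arrays, on probe set 10580635. FP-low replicate 6 held the 5.67, and no other array exceeded 4.78. FP-low replicates 1, 4 and 5 had the identical level of 4.16892, and the cause was not tested. The Ces1d difference in adenomas relative to normal was -0.60 ± 0.38 (limma, adjusted p = 0.580). Ces1g, a lipid ester hydrolase whose loss disturbs lipid metabolism in mice, had 3.73 to 4.28 in adenomas, 3.91 to 5.06 in FP-high and 3.94 to 4.58 in FP-low arrays, on probe set 10580678. Its highest array was FP-high replicate 1, and the groups overlapped.

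Ces1c, the esterase of mouse plasma, had levels of 2.75 to 3.02 in adenomas, 2.60 to 3.38 in FP-high and 2.60 to 3.51 in FP-low arrays, on probe set 10580624. Ces2b had 4.64 to 5.23 in adenomas, 4.99 to 5.67 in FP-high and 4.50 to 5.08 in FP-low arrays, on probe set 10574511. Ces3a, a carboxylesterase known from liver, had 4.70, 4.71 and 4.73 in adenomas on probe set 10574598. Its FP-high levels were 6.02, 4.70, 4.83 and 4.73, and its FP-low levels ran from 4.41 to 5.55. In adenomas relative to normal, Ces1c differed by -0.05, Ces1g by -0.29, Ces2b by -0.12 and Ces3a by -0.21, with adjusted p of 0.919, 0.621, 0.760 and 0.750 (limma). Apart from FP-high replicate 1 and FP-low replicate 3, Ces3a stayed within 4.41 to 4.83. The mean levels of Ces1c, Ces1d and Ces1g were below 4.64, the median over all tested probe sets, and whether such probe sets exceed background was not analysed here.

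In FP-high relative to FP-low epithelium, 0 of the 9 members passed the adjusted threshold of 0.05 (limma, Benjamini-Hochberg adjustment), and neither did any other probe set (0%). At an unadjusted p under 0.05 there was 1 member, Ces1e, while 12.7% of all probe sets passed that mark. No member separated the groups without overlap, which 2.25% of all probe sets did. Ces1e was -0.67 ± 0.24 in FP-high relative to FP-low (unadjusted p = 0.0176, limma, adjusted p = 0.367), with an interval of -1.19 to -0.14. FP-high replicates 1 and 3 were below all FP-low arrays, and replicates 2 and 4 were among them. Without FP-high replicate 1 the difference was -0.53 (adjusted p = 0.588).

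The differences of 6 members were positive and those of 3 negative, and the median over the 9 was 0.30, against 0.05 over all tested probe sets. Without FP-high replicate 1 these medians were 0.08 and 0.02. Ces1f differed by 1.15 ± 1.04 in FP-high relative to FP-low (limma, adjusted p = 0.550), Ces2a by 0.59 ± 0.67 (adjusted p = 0.630) and Ces2e by 0.54 ± 0.84 (adjusted p = 0.732). Leaving out FP-high replicate 1 moved these to 2.11 ± 0.96, 1.37 ± 0.52 and 1.62 ± 0.56, with adjusted p of 0.584, 0.493 and 0.440. The intervals with all arrays, -1.10 to 3.41 for Ces1f and -1.29 to 2.36 for Ces2e, show how wide a difference these samples leave possible in either direction. Ces2b differed by 0.35 ± 0.17 (adjusted p = 0.392), and by 0.38 without that array. Ces1g differed by 0.18 and Ces3a by 0.30, and both were at -0.02 without FP-high replicate 1, the array in which each was highest. Ces1c and Ces1d differed by -0.04 and -0.22 (adjusted p = 0.928 and 0.755).

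**Figure D2:**
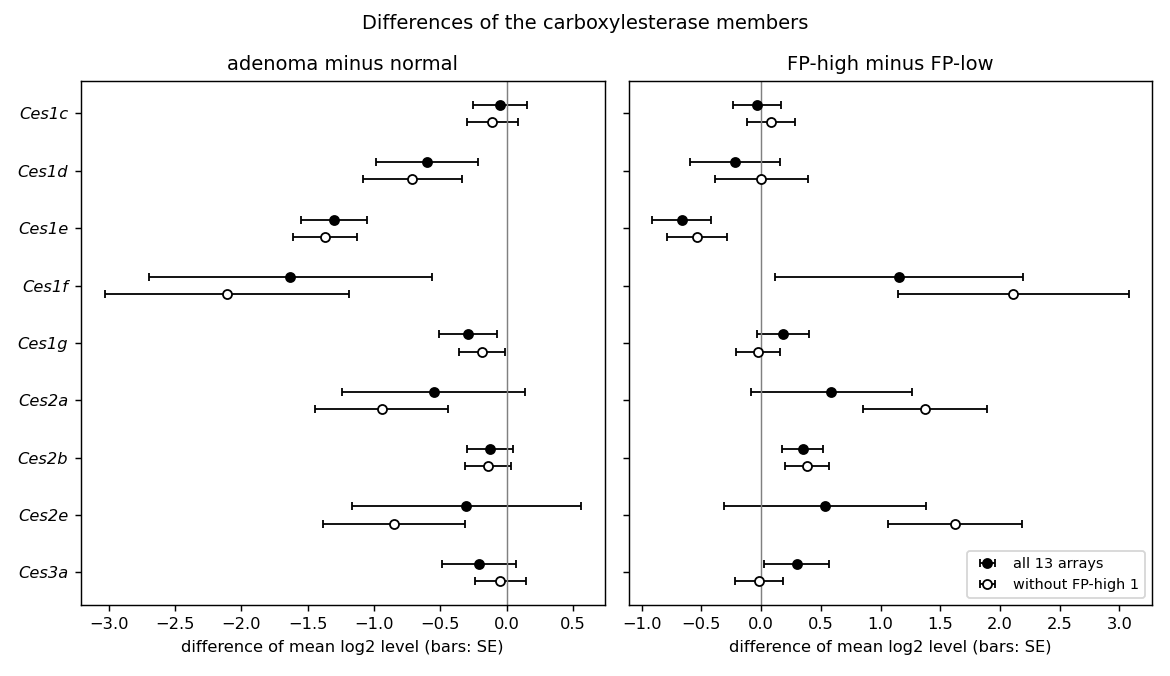
Difference of mean log2 level for each member, in adenoma minus normal (left) and FP-high minus FP-low (right); bars are standard errors, filled circles use all 13 arrays and open circles leave out FP-high replicate 1. Ces1e was at -1.30 on the left and at -0.67 on the right, while Ces1f, Ces2a and Ces2e moved away from 0 once FP-high replicate 1 was left out.

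In adenomas relative to normal epithelium, 1 of the 9 members passed the adjusted threshold, Ces1e, which was lower. Among all probe sets 0.91% passed in either direction and 0.0256% passed as lower, 10.6% had an unadjusted p under 0.05 (1 of 9 members) and 3.97% had groups that did not overlap (1 of 9 members). Since this contrast was known, nothing is read from these counts. The count of members was 0 without any 1 of the adenomas, without FP-high replicate 4 or without FP-low replicate 1. All 9 member differences were negative, with a median of -0.30, while 61.9% of all probe sets were negative with a median of -0.09. All 9 were negative again without FP-high replicate 1, and the medians were then -0.71 and -0.07. With the replicate number as a block, 0 of the 9 members passed, and the Ces1e difference was -1.28.

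Relative to FP-low alone, Ces1e was the 1 member past the threshold, where 0.551% of all probe sets passed and 0.0171% as lower. An unadjusted p under 0.05 was found for 7.45% of probe sets and for 1 member, and 9.31% separated without overlap, as did 1 member. This contrast shares its arrays with the known one, so nothing is read from these counts either. With the replicate number as a block, 0 of the 9 members passed here too, and the Ces1e difference was -1.64. The count was also 0 without adenoma replicate 2 or 3. Ces1f differed by -1.05 ± 1.14 from FP-low (limma, adjusted p = 0.967), Ces2a by -0.26 (adjusted p = 0.997) and Ces2e by -0.04 (adjusted p = 0.998).

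Relative to FP-high alone, 0 of the 9 members passed by limma, while 0.765% of all probe sets did. At an unadjusted p under 0.05 there was 1 member, Ces1e, against 15.7% of probe sets, and Ces1e was also the 1 member whose groups did not overlap, against 17.1%. Nothing is read from these counts, since the arrays are shared with the known contrast. Ces1f was -2.21 ± 1.23 (adjusted p = 0.366), Ces2a -0.85 ± 0.80 (adjusted p = 0.532) and Ces2e -0.57 ± 1.00 (adjusted p = 0.736). Without FP-high replicate 1 they were -3.17, -1.63 and -1.66, with adjusted p of 0.207, 0.224 and 0.249. The median of the 9 members was then -0.71, against -0.08 over all tested probe sets.

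Within the family, Ces1f, Ces2a and Ces2e varied together from array to array. Over 13 arrays the Pearson correlation was 0.83 between Ces1f and Ces2e, 0.86 between Ces2a and Ces2e and 0.71 between Ces1f and Ces2a. Over the 12 arrays without FP-high replicate 1 these were 0.88, 0.81 and 0.68, and over the 9 normal arrays among these 0.88, 0.80 and 0.64. Across all 36 pairs of members the median was 0.04. Ces1e had a correlation of 0.47 with Ces1f and 0.20 with Ces2e over 13 arrays, and of 0.14 and -0.20 over the 9 normal arrays. Over 13 arrays its highest correlation was with Ces1d, at 0.51, which was 0.13 over the 9 normal arrays. These points share groups, amplification and array-wide quality, and the exchange of signal between probe sets of related genes was not tested. Ces1f and Ces2e lie in separate tandem arrays of the chromosome.

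**Figure D3:**
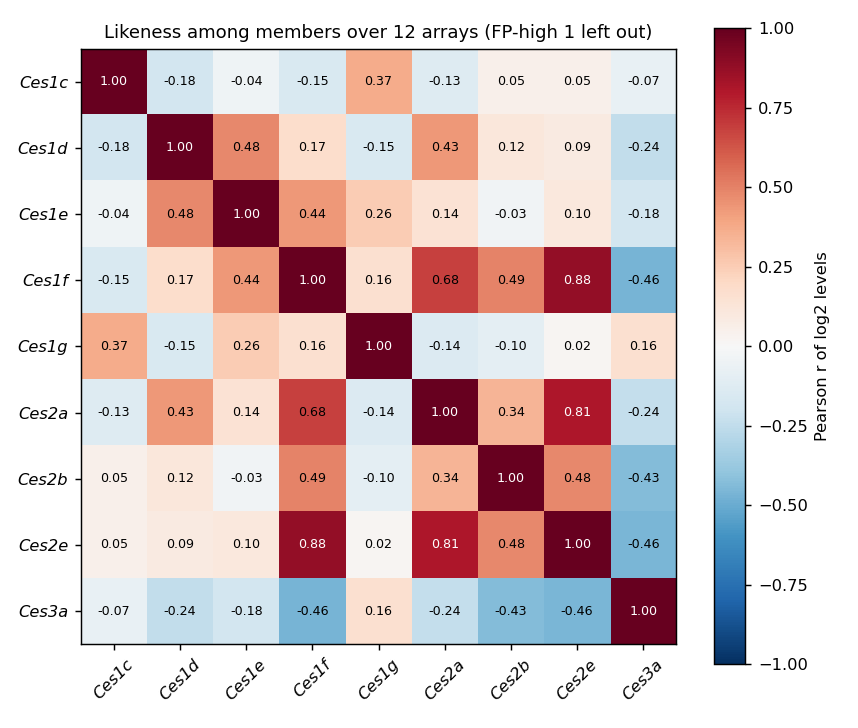
Pearson correlation of log2 levels between members over 12 arrays, FP-high replicate 1 left out, with red for positive and blue for negative values. The highest values are 0.88 for Ces1f with Ces2e, 0.81 for Ces2a with Ces2e and 0.68 for Ces1f with Ces2a. Ces1e has 0.48 with Ces1d, 0.44 with Ces1f and 0.10 with Ces2e.

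The same 3 genes followed several gene lists, among them enzymes that work beside them. The mean log2 level of 28 phase I and II detoxification enzymes (cytochromes P450, transferases and the like) was 5.79 to 5.87 in adenomas. It was 4.60, 7.16, 7.83 and 6.46 in FP-high arrays and 5.44 to 6.77 in FP-low arrays. Its Pearson correlation over 13 arrays was 0.94 with Ces2e, 0.87 with Ces2a and 0.79 with Ces1f, against 0.33 with Ces1e. Over the 9 normal arrays without FP-high replicate 1 these were 0.92, 0.81 and 0.76, and -0.16 for Ces1e. Markers of proximal small intestine had 0.85 with Ces2e, 0.80 with Ces2a and 0.79 with Ces1f over 13 arrays. For general epithelial markers these were 0.74, 0.64 and 0.45, but 0.52, 0.53 and 0.48 over the 12 arrays without FP-high replicate 1. The distal list had 0.49, 0.38 and 0.14 over 13 arrays, but 0.85, 0.88 and 0.69 over the 9 normal arrays.

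**Figure D4:**
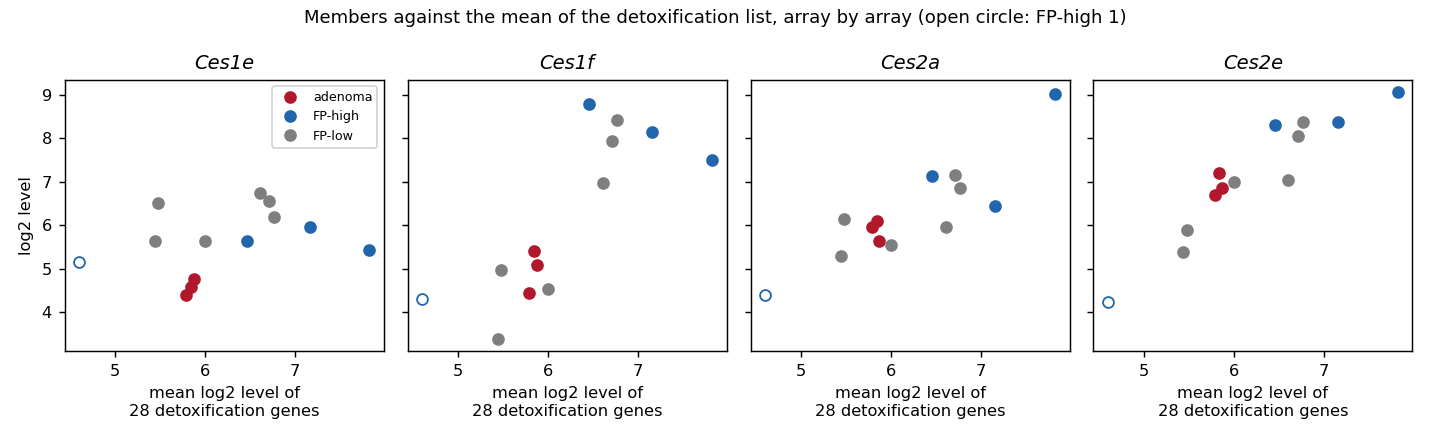
Log2 level of Ces1e, Ces1f, Ces2a and Ces2e (vertical axes) against the mean log2 level of 28 detoxification genes (horizontal axes) on each array, coloured by group, with FP-high replicate 1 as an open circle. Adenomas sit in the middle of the Ces2e trend, at 5.79 to 5.87 on the horizontal axis, but at the bottom of the Ces1e panel.

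Enterocyte markers moved along as well. The mean log2 level of 23 of them was 6.69 to 6.79 in adenomas, 5.54, 7.91, 8.85 and 6.82 in FP-high arrays and 5.66 to 7.43 in FP-low arrays. It had a correlation of 0.87 with Ces2e, 0.81 with Ces2a, 0.68 with Ces1f and 0.10 with Ces1e over 13 arrays. In FP-high relative to FP-low 22 of the 23 were higher with a median of 0.72, and in adenomas relative to normal 18 were lower with a median of -0.38, but 0 were called in either comparison (limma). Once FP-high replicate 1 was left out these were 23 with a median of 1.10 and 19 with a median of -0.67. The 15 markers of proliferating cells were all lower in FP-high than in FP-low, with a median of -0.95, and again 0 were called. The share of differentiated enterocytes in each sample was not measured, and its part in the levels of Ces1f, Ces2a and Ces2e was not tested. Ces1e had a correlation of 0.44 with the mean of the proliferating list over 13 arrays and 0.63 over the 9 normal arrays. That mean was 6.75 to 7.16 in adenomas, 5.53 to 6.94 in FP-high and 6.93 to 7.48 in FP-low arrays. Relative to FP-high, 13 of the 15 markers were higher in adenomas, while Ces1e was lower there. Relative to FP-low, 14 of the 15 were lower in adenomas, as was Ces1e.

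Of 10 other carboxylesterase genes, 7 were measured and 0 were called in any of the 4 comparisons (limma). Their differences were positive in 7 of 7 for FP-high relative to FP-low, with a median of 0.26, and negative in 7 of 7 for adenoma relative to normal, with a median of -0.28. Leaving out FP-high replicate 1 gave medians of 0.13 (7 of 7 positive) and -0.18 (6 of 7 negative). Ces2f differed by 0.26 ± 0.14 in FP-high relative to FP-low (adjusted p = 0.400) and by -0.28 ± 0.14 in adenomas relative to normal (adjusted p = 0.512). For Ces1a the difference was 0.42 ± 0.23 in FP-high relative to FP-low (adjusted p = 0.402), and Ces1b differed by -0.25 ± 0.17 in adenomas relative to normal (adjusted p = 0.587).

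Among 28 detoxification genes 0 were called in these comparisons by limma, 21 were positive in FP-high relative to FP-low (median 0.27, or 1.03 without FP-high replicate 1) and 21 were negative in adenomas relative to normal (median -0.49, or -0.79 without it). Cyp3a11, a major intestinal P450, differed by -2.56 ± 0.99 in adenomas relative to normal (adjusted p = 0.376). Cyp2c55, an arachidonic acid P450, differed by 1.63 ± 0.62 in FP-high relative to FP-low (adjusted p = 0.376) and by -2.14 ± 0.73 in adenomas relative to FP-high (adjusted p = 0.231), where it was the 1 gene of this list called, as lower, without FP-high replicate 1. The 19 genes of triglyceride resynthesis and chylomicron assembly, the pathway that repackages absorbed fat, had 0 calls, with medians of 0.32 in FP-high relative to FP-low and -0.02 in adenomas relative to normal (0.98 and -0.38 without FP-high replicate 1). Mogat2, which makes diacylglycerol, differed by -0.58 ± 0.22 in the adenoma comparison (adjusted p = 0.346), and Cd36, a fatty acid carrier, by 1.34 ± 0.65 in the FP-high comparison (adjusted p = 0.392).

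Of 18 other acylglycerol and ester hydrolases 0 were called by limma, with medians of 0.01 in FP-high relative to FP-low (0.13 without FP-high replicate 1) and -0.07 in adenomas relative to normal. Pnliprp1, a pancreatic lipase relative, came nearest, at 1.33 ± 0.29 in adenomas relative to normal (adjusted p = 0.0565), and it was called without FP-high replicate 1. Mgll, which splits monoacylglycerol, differed by 0.36 ± 0.15 in FP-high relative to FP-low (adjusted p = 0.388). Among 19 receptors and factors of lipid and xenobiotic genes, 6 were higher in adenomas than in normal epithelium. Pparg, the fatty acid receptor, was the 1 called there, as higher by 1.28 ± 0.25 (limma, adjusted p = 0.0311, or 0.182 with the replicate block). That call ended without any 1 adenoma, without FP-low replicate 1, 2 or 6, or without replicate 3 or 4 of FP-high (limma, adjusted p up to 0.250). Nr1h3, the oxysterol receptor LXR alpha, had 0.60 ± 0.16 in FP-high relative to FP-low (adjusted p = 0.236) and -0.39 ± 0.16 in adenomas relative to normal (adjusted p = 0.410).

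The genes outside the family most like Ces1f and Ces2e, the members with the highest mean level in their subfamilies, were taken from 9917 genes by Pearson correlation over the 12 arrays. For Ces1f these were Pde9a, a cyclic GMP phosphodiesterase, at 0.92 (0.90 over 13 arrays), Reg1, a secreted lectin, at 0.91 (0.77) and P4hb, a protein disulfide isomerase, at 0.91 (0.59). For Ces2e they were Nmi, a partner of STAT proteins, at 0.94 (0.96), Myo1d, a class I myosin, at 0.92 (0.84) and Ap2a2, a clathrin adaptor subunit, at 0.90 (0.82). Nmi had log2 levels of 8.25 to 8.61 in adenomas, 6.97 to 9.15 in FP-high and 7.55 to 9.02 in FP-low arrays. Pde9a had 5.64 to 6.09 in adenomas, 6.15 to 6.80 in FP-high and 5.64 to 6.72 in FP-low arrays, so its adenomas overlapped only FP-low.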

How the data were processed

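RNA of 13 samples was measured on 13 arrays. The authors deposited 35556 probe sets per array on a log2 scale, made with Affymetrix Expression Console and Transcriptome Analysis Console per the submitters' processing notes. The program versions, background correction, normalization and build are not stated in the labels or files. That the scale is log2 was taken from the range of the values, and no normalization was added. Names came from the platform annotation, and the 12146 probe sets without a symbol were not tested.

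The members and gene lists were chosen with earlier results of these data known. Each comparison was fitted with limma 3.58.1 (R 4.3.3, lmFit and eBayes, two-sided) on all 13 arrays in 3 groups, after a test on simulated data. Benjamini-Hochberg adjustment ran over 23410 probe sets, with calls at an adjusted p under 0.05. Normal stands for the FP-high and FP-low group means weighted equally. List genes were read on the brightest probe set with 1 symbol, and described by counts and medians with no set test. Named were all members, list genes that were called, up to 2 list genes with the smallest p in each comparison, and the 3 genes most like the brightest Ces1 and Ces2 member among those at or above the median level. Correlations are descriptions over arrays.

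The labels share replicate numbers between groups. Deviations from group means of same-numbered FP-high and adenoma arrays correlated at 0.233, 0.102 and 0.22, all over the bound of 0.1, while the values for FP-low pairs lay between -0.361 and 0.178. No label states a pairing, so it rests on this check alone. Alternatives were quantile normalization, a filter at the median level, all probe sets, array weights, a trended robust prior, only the compared groups, the replicate block and each array left out.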

Additional observations from a re-analysis of the deposited data

Results flagged for a closer look

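Of the 18 groups of 4 or 6 arrays tested for an array far from the others (9 members in FP-high and FP-low), 4 held one, where chance flags about 1 in 20 groups. Ces2e had 4.23 in FP-high replicate 1, against 8.31 to 9.06 in the other FP-high arrays. Ces3a had 6.02 in FP-high replicate 1, against 4.70 to 4.83 in the others. That array stood apart over all probe sets too. Ces3a had 5.55 in FP-low replicate 3, against 4.41 to 4.74 in the other FP-low arrays. Ces1d had 5.67 in FP-low replicate 6, against 3.50 to 4.17 in the others, where replicates 1, 4 and 5 had identical levels. All are log2 levels.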

How the results depend on the processing

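Leaving out 1 array at a time gave 468 member results, of which 438 kept their direction and side of the threshold, 23 turned direction and 7 lost a call. The other settings gave 231, of which 218 kept both, 10 turned direction, 2 lost a call and 1 gained one. The calls lost or gained were those of Ces1e, and no turned result was called. With the replicate block, called members numbered 0 (adenoma against normal) and 0 (adenoma against FP-low), against 1 in each without it, and called list genes numbered 1 in each adenoma comparison, against 6 (normal), 4 (FP-low) and 4 (FP-high). With array weights 1 member was called for adenoma against FP-high, and quantile normalization gave 2 called list genes there. Without 1 array, called members ranged from 0 to 1 (adenoma against normal, and against FP-low), and called list genes from 0 to 3 (FP-high against FP-low, 3 without FP-high replicate 3), 2 to 16 (adenoma against normal, 16 without FP-high replicate 1), 1 to 10 (adenoma against FP-low, 10 without FP-high replicate 1) and 2 to 5 (adenoma against FP-high). Over all probe sets 207 were called higher and 6 lower for adenoma against normal, but 186 and 38 after quantile normalization, 692 and 461 with array weights, 66 and 1 with the replicate block and 344 and 144 without FP-high replicate 1. For adenoma against FP-low these counts were 125 and 4, but 122 and 36 after quantile normalization, 511 and 357 with array weights, 223 and 120 with only the compared groups and 37 and 0 with the block. For adenoma against FP-high they were 175 and 4, but 436 and 158 with array weights, 46 and 0 with only the compared groups and 51 and 0 with the block. For FP-high against FP-low 3 were called as lower with array weights, 1 after quantile normalization and 6 higher and 130 lower without FP-high replicate 3.

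For FP-high against FP-low, Ces1c was 0.19 with array weights and 0.030 with the replicate block, and Ces1d was 0.12 with the block. For adenoma against normal, Ces1c was 0.011 after quantile normalization and 0.019 with the block, and Ces2b was 0.0024 with the block. For adenoma against FP-low, Ces1c was 0.034 with the block and Ces3a 0.032 with array weights. For adenoma against FP-high, Ces1c was 0.15 after quantile normalization and 0.0036 with the block. Without 1 array, the FP-high against FP-low difference ranged from -0.18 to 0.081 for Ces1c, -0.47 to 0.068 for Ces1d, -0.023 to 0.36 for Ces1g, -0.17 (without FP-high replicate 3) to 1.37 for Ces2a and -0.018 to 0.46 for Ces3a. Adenoma against normal ranged from -0.11 to 0.035 for Ces1c and -0.28 to 0.017 for Ces2b. Adenoma against FP-low ranged from -0.15 to 0.035 for Ces1c, -0.11 to 0.19 for Ces2b, -0.35 to 0.25 for Ces2e and -0.13 to 0.10 for Ces3a, and adenoma against FP-high from -0.15 to 0.11 for Ces1c. The cause was not tested for any of these. The median correlation of 0.04 among members was 0.068 without FP-high replicate 1 and 0.082 by Spearman's rho. A mean over several probe sets of a member was not run, since each had 1, and the filter at the median level left no value for Ces1c, Ces1d and Ces1g. The number of arrays and signal near background limit the dim members.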
